A study of Arabidopsis thaliana with 72 samples.

Results

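The 7-day seedling of *Arabidopsis* was set against the mature seed it grows from, by mRNA level and by the pseudouridine (Ψ) fraction of mRNA sites. Ψ is an isomer of uridine that pseudouridine synthases make within RNA. In bisulfite-induced deletion sequencing (BID-seq), a bisulfite adduct on Ψ causes a base to be skipped when the RNA is copied into cDNA. The calibrated share of reads with such a gap is the Ψ fraction, the share of RNA molecules that carry Ψ at the site. Every gene of the expression table was taken, 32833 of 32833, and of the 8512 Ψ sites of the table the 7812 that had a Ψ fraction in both tissues. Of the others, 91 had no seedling value and 648 no seed value, 39 of them in both counts.

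Both groups were wild-type Col-0. Growth was under 16 h of light per day, with the temperature held at 20 °C. Seedlings were harvested at 7 days from plates, and seeds were collected fully mature and dried, with no treatment in either group. Of the 72 libraries of 9 tissues, 15 belong to these groups: 2 input and 7 bisulfite-treated libraries of seedling, and 1 input and 5 treated libraries of seed. Expression was given as TPM, a transcript level already divided by transcript length and scaled to the same total in each column, in 2 columns for seedling and 1 for seed. The Ψ fractions were given as 1 value per tissue from combined replicates, so no spread between libraries and no read depth stood behind them. The study's methods speak of biological replicates, but do not say whether the libraries of a tissue came from separate plants.

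A dry seed holds a mature embryo, a thin endosperm and a seed coat, and keeps the mRNA that was made late in maturation. That stored RNA is known for transcripts of storage proteins, oil-body proteins and the late embryogenesis abundant (LEA) proteins that accompany desiccation. After germination the reserves are used up, and the seedling turns green, builds photosynthetic complexes and grows by cell division and cell expansion.

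The seed column was more concentrated in few transcripts. It held 15811 genes at 1 TPM or more, against 20537 and 20580 in the seedling columns. Its 100 most abundant genes took 32.5% of all TPM, against 16.9% and 16.0% in seedling. The seedling columns differed from each other by a median of 0.10 on the log2(TPM + 1) scale over 26078 genes (Pearson's r = 0.994 across genes, which are not independent replicates). Flower and fruit markers summed to 3.76 TPM in seed and to 16.1 and 16.9 TPM in seedling, with none of the 8 listed at 0 in seed. A low level of a seed or leaf transcript cannot be told apart here from fewer cells that carry it.

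Of 26078 genes with at least 1 TPM in at least 1 of the 16 columns, 10568 (40.5%) were higher and 3389 (13.0%) lower in seedling. A gene was called at an adjusted p under 0.05 (limma, Benjamini-Hochberg) and a difference of at least 1 on the log2(TPM + 1) scale, a scale that understates changes of low genes. Seed has 1 column, and the test therefore assumes that seed varies like the 7 tissues with 2 columns. The split between higher and lower rests on the scaling. The median gene was 0.57 higher in seedling on the log2 scale as deposited, and differed by -0.04 after quantile normalization and by -0.96 after centring each column on its median. The share of higher calls among all calls was 75.7% as deposited, 48.1% after quantile normalization and 27.6% after median centring. Of all genes tested, 25.6% were higher and 27.7% lower after quantile normalization, and 18.6% and 48.8% after median centring. These shares, and the 40.5% and 13.0% as deposited, are the background for each count of list members below. The same call was given under all 3 scalings to 4806 of the 10568 higher genes and to 3382 of the 3389 lower genes, and none of these called genes was called in the opposite direction under another scaling.

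The genes that fell most included genes of seed maturation. ECP31 (AT3G22500), which encodes a seed maturation protein of the LEA group, stood at 3681 TPM in seed and at 1.49 and 1.86 TPM in the seedling columns. Its difference of -10.43 ± 0.96 (SE) on the log2 scale was the largest of all called genes (adjusted p = 1.0e-06). AtMT4b (AT2G23240), a seed metallothionein that binds zinc, stood at 2509 TPM in seed and at 1.18 and 0.86 TPM in seedling. Its relative AtMT4a (AT2G42000) stood at 1400 TPM in seed and at 0.39 and 0.68 TPM in seedling. AT5G22470, annotated as poly ADP-ribose polymerase 3, went from 2274 TPM to 0.91 and 1.12 TPM. A further 4 of these 10 genes, AT1G14930, AT1G14940, AT1G14950 and MLP31 (AT1G70840), are annotated as polyketide cyclase/lipid transport or MLP-like proteins. They stood between 1744 and 4280 TPM in seed and between 0.70 and 3.27 TPM in seedling. AT3G05260 (a Rossmann-fold dehydrogenase) and AT3G58450 (an adenine nucleotide alpha hydrolase-like protein) completed the 10. In each of the 10 the seed column was far above both seedling columns, and all 10 were called lower under each of the 3 scalings.

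The genes that rose most included genes for wall, defence and nitrogen proteins. EXT4 (AT1G76930), an extensin of the cell wall, stood at 0.52 TPM in seed and at 559 and 719 TPM in seedling, a difference of 8.71 ± 0.15 (adjusted p = 2.7e-13). EXT3 (AT1G21310), another extensin, stood at 2.13 TPM in seed and at 784 and 1055 TPM in seedling. BXL1 (AT5G49360), a beta-xylosidase of wall polysaccharides, went from 2.64 TPM to 817 and 838 TPM. AZI1 (AT4G12470) and EARLI1 (AT4G12480), neighbouring lipid-transfer-like genes, stood at 1.13 and 0.29 TPM in seed. In seedling AZI1 reached 537 and 593 TPM and EARLI1 320 and 326 TPM. GLU1 (AT5G04140), the main ferredoxin-dependent glutamate synthase of leaves, stood at 1.96 TPM in seed and at 743 and 738 TPM in seedling. MLP328 (AT2G01520), AT5G64120 (a class III peroxidase), DR4 (AT1G73330) and AT1G22690 (a gibberellin-regulated protein) were the other 4. The 10 were called higher under each of the 3 scalings.

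**Figure D1:**
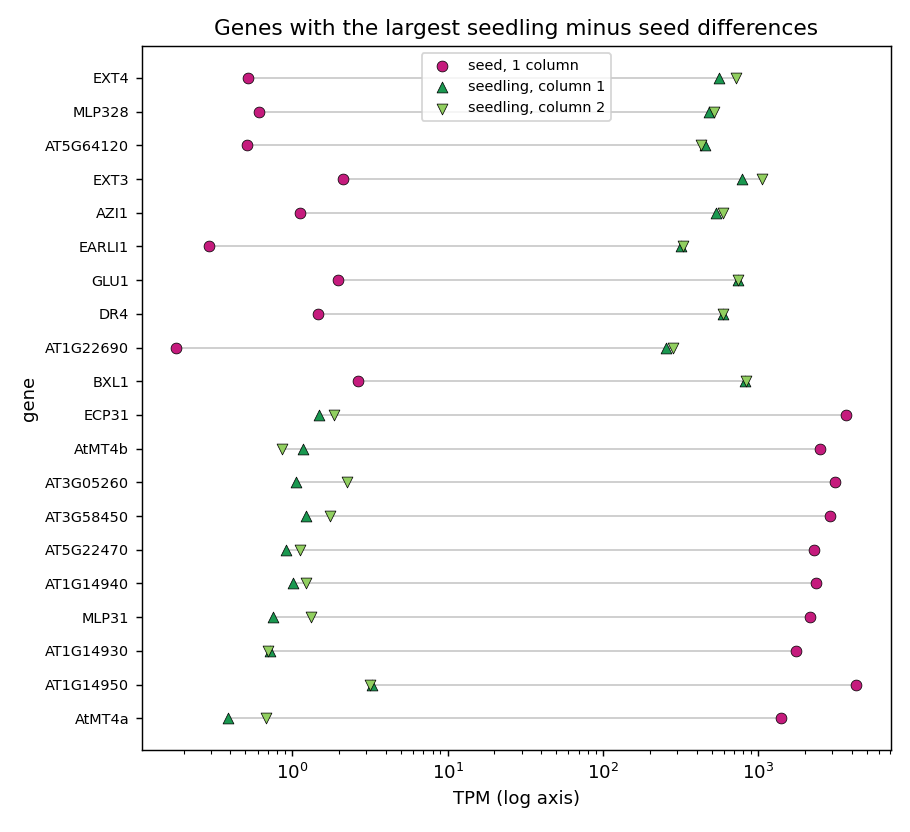
TPM on a log axis of the 10 genes with the largest positive and the 10 with the largest negative seedling minus seed difference, with the seed column as a circle and the seedling columns as triangles. The seedling columns sit close together, and the seed value of every gene lies far outside them: ECP31 is at 3681 TPM in seed against 1.49 and 1.86 TPM in seedling.

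All 9 seed storage protein genes fell, with a median difference of -5.77 against 0.57 over all genes tested. They encode cruciferins (12S globulins) and 2S albumins, which feed the embryo's first growth with amino acids. Their summed level went from 34285 TPM in seed to 626 and 716 TPM in seedling. The cruciferin CRA1 (AT5G44120) stood at 5226 TPM in seed and at 90.07 and 99.2 TPM in seedling. In the 13 columns of the other tissues it ranged from 6.54 to 2212 TPM, with a median of 12.9 TPM and the highest value in silique, the fruit that holds developing seeds. The albumin SESA5 (AT5G54740) moved most of the list, from 6417 TPM to 26.1 and 31.9 TPM (-7.75 ± 0.83, adjusted p = 3.7e-06). CRU2 (AT1G03880) stood at 3435 TPM in seed and at 28.3 and 25.9 TPM in seedling. SESA2 (AT4G27150) kept the highest seedling level of the list, 124 and 143 TPM against 1914 TPM in seed. The albumins SESA1 to SESA4 are close copies in tandem, so reads may have been split between them.

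All 7 oil-body genes and all 17 LEA and desiccation genes fell too, with medians of -8.07 and -8.24. Oleosins and caleosin coat the seed's oil droplets. OLEO1 (AT4G25140) stood at 6827 TPM in seed and at 38.2 and 46.7 TPM in seedling, and the caleosin CLO1 (AT4G26740) at 1547 TPM in seed and at 3.30 and 3.91 TPM in seedling. The steroleosin gene HSD1 (AT5G50600) went from 2593 TPM to 6.28 and 6.90 TPM. The summed level of the LEA list went from 60855 TPM in seed to 627 and 679 TPM in seedling. EM6 (AT2G40170), a hydrophilic group 1 LEA protein, went from 6088 TPM to 10.6 and 12.2 TPM. RAB18 (AT5G66400), a dehydrin that also responds to abscisic acid (ABA) outside seeds, kept the highest seedling level of the list, 259 and 280 TPM against 8742 TPM in seed. LEA14 (AT1G01470) moved least, from 806 TPM to 69.1 and 64.9 TPM (-3.57 ± 0.05).

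Heat shock proteins, chaperones that also accumulate in maturing seeds without heat, fell for all 12 genes of the list (median -4.80). HSP17.6A (AT5G12030) stood at 3495 TPM in seed and at 7.80 and 7.09 TPM in seedling, and HSP17.4 (AT3G46230) at 3498 TPM in seed and at 10.0 and 14.8 TPM in seedling. HSP101 (AT1G74310), the disaggregase of heat tolerance, went from 553 TPM to 5.40 and 5.51 TPM. The smallest change on the log2(TPM + 1) scale was that of the plastid chaperone HSP21, 4.16 TPM in seed against 0.24 and 0.42 TPM. By the ratio of TPM, HSP17.6II changed least, 34.5 TPM in seed against 3.20 and 3.51 TPM.

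The regulators of maturation and dormancy were mixed: 14 of 22 fell, 2 rose and 6 did not pass (median -1.98). Of all genes tested, 13.0% fell and 40.5% rose. HSFA9 (AT5G54070), the heat shock factor of seeds, stood at 418 TPM in seed and at 0.01 and 0.07 TPM in seedling. AHG1 (AT5G51760), a phosphatase of ABA signalling in seeds, went from 879 TPM to 0.67 and 0.72 TPM (-9.02 ± 0.23, adjusted p = 6.1e-12). SOM (AT1G03790), a zinc-finger repressor of germination, went from 1286 TPM to 3.12 and 2.94 TPM. The ABA transcription factor ABI5 (AT2G36270) went from 625 TPM to 0.97 and 1.83 TPM, and ABI3 (AT3G24650) from 111 TPM to 0.48 and 0.60 TPM. DOG1 (AT5G45830), the dormancy gene, stood at 104 TPM in seed and at 7.46 and 8.01 TPM in seedling. The early embryo regulators LEC1 and LEC2 were at 0.14 and 0.17 TPM in seed and under 1 TPM in seedling, and neither passed. WRI1 (AT3G54320), an activator of oil synthesis, was called higher at 1.02 against 4.15 and 5.49 TPM, but its difference turned to -0.13 under quantile normalization and to -0.00 under median centring. PIF1 (AT2G20180), which represses germination in the dark, stood at 18.5 TPM in seed and at 36.8 and 40.4 TPM in seedling. Its difference of 1.02 became -0.50 under median centring and was no longer called under quantile normalization or without seedling replicate 2 (0.96).

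Of 16 genes that mobilise stored oil, 10 fell and none rose (median -1.57), against 11 that fell under quantile normalization and 15 under median centring. Of all genes tested, 13.0%, 27.7% and 48.8% fell in the same order. The glyoxylate cycle, which turns fatty acids into sugar precursors, showed the largest changes. MLS (AT5G03860), malate synthase, stood at 2044 TPM in seed and at 18.9 and 19.1 TPM in seedling, and ICL (AT3G21720), isocitrate lyase, at 2743 TPM in seed and at 70.5 and 68.8 TPM in seedling. The peroxisomal citrate synthase CSY3 (AT2G42790) went from 733 TPM to 89.6 and 86.0 TPM, and the β-oxidation enzyme MFP2 (AT3G06860) from 381 TPM to 77.1 and 79.8 TPM. SDP1 (AT5G04040), the lipase that starts oil breakdown, stood at 60.5 TPM in seed and at 62.4 and 63.1 TPM in seedling (difference of 0.05 ± 0.05, and -1.47 and called lower under median centring). Of 5 oil synthesis genes, DGAT1 (AT2G19450), which adds the last acyl chain to triacylglycerol, fell from 242 TPM to 9.44 and 9.08 TPM. The desaturases FAD2 (AT3G12120) and FAD3 (AT2G29980) and the acyltransferase PDAT1 (AT5G13640) rose, FAD2 from 26.4 TPM to 461 and 484 TPM. FAE1 was at 0.50 TPM in seed and at 0.56 and 0.44 TPM in seedling.

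**Figure D2:**
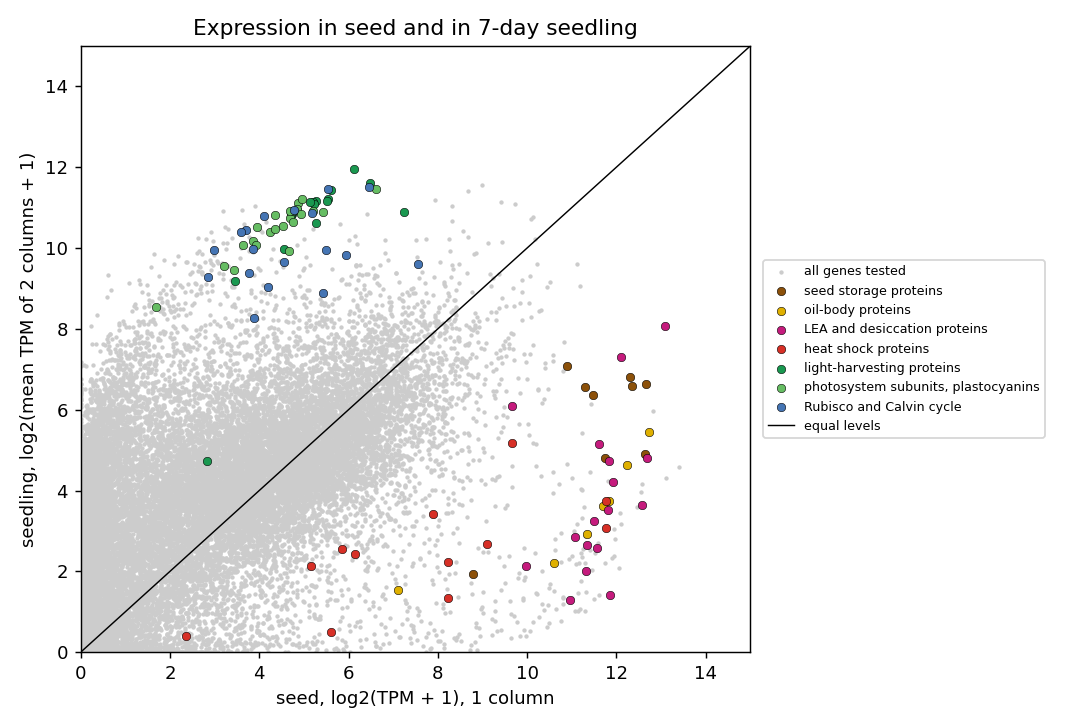
Level of each of 26078 genes in seed (x axis, log2(TPM + 1), 1 column) and in 7-day seedling (y axis, log2 of the mean of 2 columns plus 1), with 7 gene lists in colour and a line of equal levels. The storage, oil-body, LEA and heat shock genes all lie below the line, and the light-harvesting, photosystem and Calvin cycle genes all lie above it.

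All 18 light-harvesting genes, all 23 nuclear photosystem and plastocyanin genes and all 18 Rubisco and Calvin cycle genes rose, with medians of 5.83, 6.15 and 5.65. Under quantile normalization 17, 23 and 18 of them were called higher, and under median centring 17, 23 and 17. The summed level of the light-harvesting list was 771 TPM in seed and 38003 and 34357 TPM in seedling. LHCB2.2 (AT2G05070), an antenna protein of photosystem II, stood at 26.0 TPM in seed and at 2047 and 1848 TPM in seedling (6.17 ± 0.16, adjusted p = 8.0e-12). LHCB4.1 (AT5G01530), which encodes the minor antenna CP29, had the highest seed level of the list, 151 TPM, against 2020 and 1779 TPM in seedling. PETE1 (AT1G76100), a plastocyanin that carries electrons to photosystem I, went from 2.21 TPM to 356 and 383 TPM, and PSBO2 (AT3G50820), of the oxygen-evolving complex, from 14.4 TPM to 1507 and 1407 TPM. In the Calvin cycle, PRK (AT1G32060), phosphoribulokinase, went from 6.97 TPM to 976 and 987 TPM (6.95 ± 0.11). The small subunit gene RBCS1A (AT1G67090) stood at 87.5 TPM in seed and at 2989 and 2833 TPM in seedling. The LHCB1 and RBCS genes are near-identical copies, so the level of each single copy is uncertain.

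All 15 chlorophyll synthesis genes rose (median 5.88, of which 15 stayed called under quantile normalization and 13 under median centring). CHLH (AT5G13630), a magnesium chelatase subunit, stood at 4.21 TPM in seed and at 817 and 790 TPM in seedling, and GUN4 (AT3G59400), its activator, at 1.74 TPM in seed and at 303 and 351 TPM in seedling. CRD1 (AT3G56940), the cyclase that closes the fifth ring, went from 11.7 TPM to 1588 and 1502 TPM. In photorespiration, which salvages the product of Rubisco's oxygenation, 6 genes rose. GLDP1 (AT4G33010), of glycine decarboxylase, went from 8.43 TPM to 1459 and 1474 TPM. The catalases differed among themselves: CAT1 (AT1G20630) fell from 191 TPM to 40.1 and 41.1 TPM, whereas CAT2 stood at 696 TPM in seed and at 1143 and 1140 TPM in seedling, and CAT3 at 1064 TPM in seed and at 630 and 643 TPM in seedling. The differences of CAT2 and CAT3, 0.71 and -0.74, were smaller than 1, the size needed for a call, and CAT3 was called lower under median centring.

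Growth genes rose as well. All 19 cell division and replication genes were called higher (median 2.38), 11 under quantile normalization and 7 under median centring, and none was called lower. Of all genes tested, 40.5%, 25.6% and 18.6% were called higher in the same order. The D-type cyclin CYCD3;1 (AT4G34160) stood at 0.07 TPM in seed and at 18.9 and 20.6 TPM in seedling. KNOLLE (AT1G08560), the syntaxin of the cell plate, was listed at 0 in seed and at 14.0 and 17.3 TPM in seedling. All 8 cellulose synthases and all 12 expansins tested rose (7 and 11 under median centring). CESA1 (AT4G32410), of primary walls, stood at 23.2 TPM in seed and at 175 and 179 TPM in seedling, and CESA8 (AT4G18780), of secondary walls, at 0.10 TPM in seed and at 11.0 and 10.2 TPM in seedling. EXPA1 (AT1G69530), a wall-loosening expansin, went from 1.46 TPM to 217 and 221 TPM.

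The aquaporins, channels for water in the plasma membrane (PIP) and vacuole (TIP), swapped members. Of 19 genes, 16 rose (15 under median centring) and 2 fell, beside 40.5% (18.6%) and 13.0% of all genes tested. Both aquaporins that fell are the seed vacuole forms. TIP3;1 (AT1G73190) stood at 3452 TPM in seed and at 9.83 and 11.1 TPM in seedling, and TIP3;2 (AT1G17810) at 3426 TPM in seed and at 6.87 and 8.34 TPM in seedling. TIP2;1 (AT3G16240) stood at 11.2 TPM in seed and at 2054 and 1867 TPM in seedling (7.33 ± 0.06, adjusted p = 1.2e-15), and TIP1;2 (AT3G26520) at 13.9 TPM in seed and at 2216 and 2024 TPM in seedling. PIP2;5 did not pass, at 7.58 TPM in seed and 12.8 and 12.9 TPM in seedling.

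Root genes, for uptake and root hairs, were also measured: 7 of 9 tested rose and none fell, while median centring called 4 higher and 2 lower. Of all genes tested, 40.5% rose and 13.0% fell, against 18.6% and 48.8% under median centring. The phosphate transporter PHT1;1 (AT5G43350) went from 0.07 TPM to 94.7 and 86.8 TPM, and the iron transporter IRT1 (AT4G19690) was listed at 0 in seed and at 34.1 and 32.7 TPM in seedling. AMT1;1, an ammonium transporter, stood at 106 TPM in seed and at 76.6 and 72.1 TPM in seedling and did not pass. The nitrate reductase NIA2 (AT1G37130) went from 5.20 TPM to 1258 and 1190 TPM. Of the seed coat and endosperm markers, EPR1 (AT2G27380), an extensin-like gene of endosperm, fell from 4429 TPM to 6.38 and 9.59 TPM, while the seed coat genes BAN, TT10 and TT12 were under 1 TPM in all 3 columns. The fifth of these markers, MUM4 (AT1G53500), an enzyme of seed coat mucilage, rose from 5.62 TPM to 41.1 and 38.5 TPM under each of the 3 scalings.

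**Figure D3:**
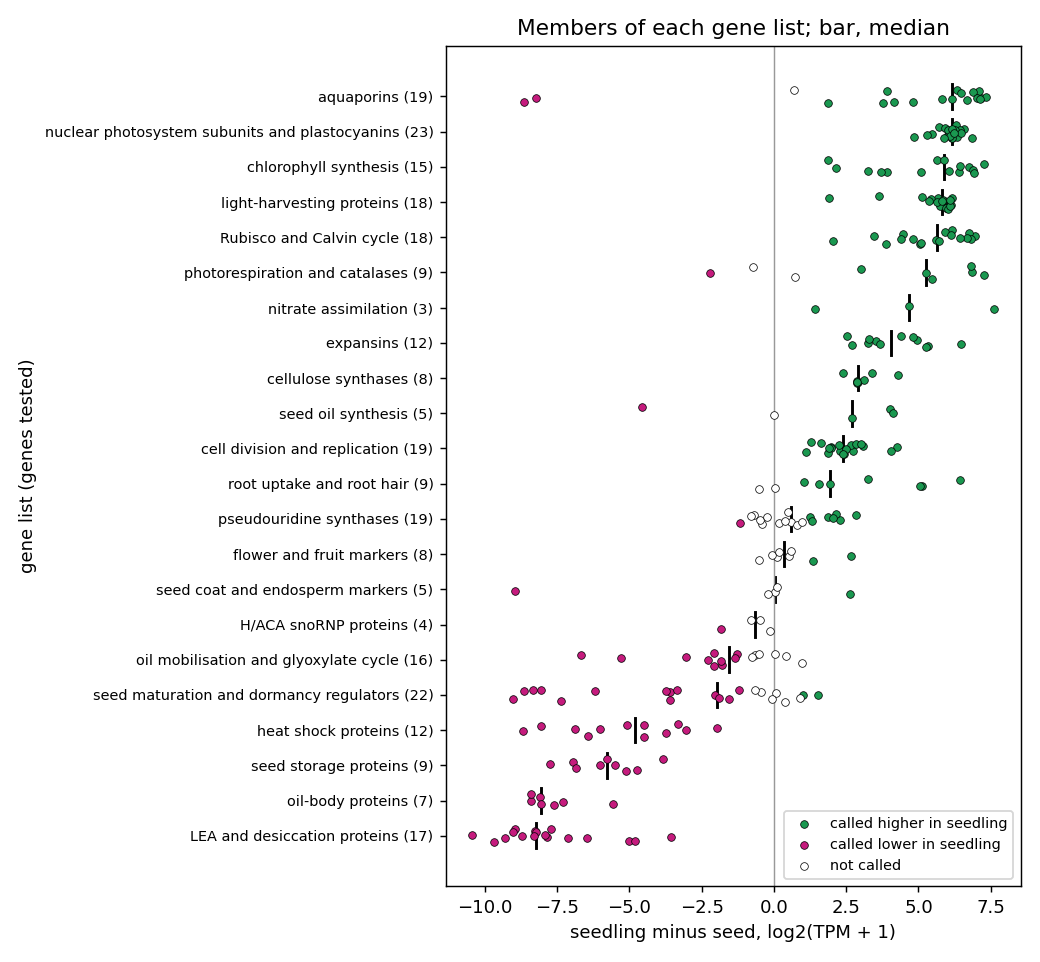
Seedling minus seed difference on the log2(TPM + 1) scale for each tested member of the gene lists and the pseudouridine synthases, coloured by call, with a bar at the median of each list. The LEA, oil-body, storage and heat shock lists lie wholly to the left of 0 and the photosynthesis, chlorophyll, cell division, cellulose synthase and expansin lists wholly to the right.

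Of 19 genes annotated as pseudouridine synthases, 7 (36.8%) rose and 1 (5.26%) fell, beside 40.5% and 13.0% of all genes. Their median was 0.59, near the 0.57 of all genes. Their direction depended on the scaling, since 3 were higher and 7 lower under quantile normalization and 1 higher and 9 lower under median centring. Of all genes, 25.6% were higher and 27.7% lower under quantile normalization, and 18.6% and 48.8% under median centring. Among the synthases, AT4G21770 moved most on the log2(TPM + 1) scale and was higher under all 3 scalings. It stood at 0.72 TPM in seed and at 9.98 and 12.5 TPM in seedling. AT5G51140 went from 7.58 TPM to 34.8 and 34.0 TPM and was not called under median centring (0.52). AT1G56345 went from 0.19 TPM to 4.95 and 4.66 TPM, and AT2G30320 from 1.83 TPM to 10.8 and 12.1 TPM, but neither was called under median centring (0.77 and 0.62), nor AT2G30320 under quantile normalization (0.54). AT3G19440 fell, from 4.28 TPM to 1.20 and 1.51 TPM. SVR1 (AT2G39140), the plastid enzyme, had the highest seed level of these genes, 59.1 TPM, and stood at 31.7 and 36.5 TPM in seedling. It was not called as deposited, but was called lower under quantile normalization (-1.16) and median centring (-2.30). H/ACA ribonucleoproteins make Ψ at positions chosen by guide RNAs. Of their 4 proteins, GAR1 (AT3G03920) fell from 244 TPM to 63.4 and 74.5 TPM, and the catalytic subunit CBF5 (AT3G57150) stood at 53.4 TPM in seed and at 28.9 and 32.5 TPM in seedling (difference of -0.78, not called). CBF5 was called lower under quantile normalization (-1.19) and median centring (-2.30), which called 2 and 4 of the 4 proteins lower. Genes with a ribosomal protein product, organellar ones included, were higher for 156 (46.8%) and lower for 22 (6.61%) of 333 tested, beside 40.5% and 13.0% of all genes (median 0.90), a direction that turned under median centring (49 higher, 132 lower, median -0.62).

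The Ψ fraction was compared at single sites. Several sites are shown first with their sequence from the RefSeq TAIR10.1 genome, 21 bases read 5′ to 3′ on the strand of the gene. The letters are those of DNA, and the U listed as the Ψ site is a capital T at position 11. The motif stated with each site was found at its TAIR10 position for 100% of nuclear and plastid sites and 0% of mitochondrial ones, which were not placed. The first set was picked after its values were seen, and had much the same fraction in both tissues although the level of the mRNA differed.
CHLH, coding sequence, chr5:4390741-4390761, minus strand: tccaggtggcTctgcaggttg
FAD2, coding sequence, chr3:3861615-3861635, minus strand: aagaaagcaaTcccgccgcat
PSBO1, coding sequence, chr5:26568959-26568979, plus strand: tcttgccaccTctgctctcgt
At the CHLH site the fraction was 0.618 in seedling and 0.605 in seed, at TPM of 817 and 790 against 4.21. The FAD2 site had 0.507 in seedling and 0.479 in seed. PSBO1 (AT5G66570), a photosystem II protein, had 0.209 in seedling and 0.214 in seed. The PSBO1 site passed the authors' filter in all 9 tissues, while the CHLH and FAD2 sites passed in seedling and not in seed. Of 13 sites in chlorophyll synthesis genes, CHLH included, 3 were at least 0.1 higher in seedling and none at least 0.1 lower. All 13 passed in seedling only, and of all sites passed so, 35.3% were higher and 7.76% lower.

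In the second set the site passed in both tissues and the mRNA was at 50 TPM or more in each column. The fractions differed by at least 0.1 between the tissues, except at the GAR1 site. The sites were picked after their values were seen, among 215 exonic sites in single protein-coding genes. Of the 215, 14 were at least 0.1 lower in seedling and 1 at least 0.1 higher.
PIP1;2, coding sequence, chr2:18911167-18911187, plus strand: gccaacaccaTagctcatggc
FAD5, coding sequence, chr3:5360890-5360910, plus strand: tgatatgactTggtacgtcgt
NIT1, coding sequence, chr3:15988514-15988534, plus strand: aaggtggaagTgtcattattt
PCK1, coding sequence, chr4:17805380-17805400, minus strand: tgtagagcttTatgagcaagc
AT3G07700, coding sequence, chr3:2460509-2460529, minus strand: tgcggctcctTatgcgcaggt
GAR1, coding sequence, chr3:1009148-1009168, minus strand: acgcggtggcTctcgtggaag
The site of the aquaporin PIP1;2 (AT2G45960) had a fraction of 0.242 in seedling and 0.632 in seed, and from 0.087 to 0.351 in the other 7 tissues. The site of FAD5 (AT3G15850), a plastid desaturase, had 0.081 in seedling and 0.389 in seed, with 0.188 the highest elsewhere. NIT1 (AT3G44310), a nitrilase, had 0.156 in seedling and 0.447 in seed. PCK1 (AT4G37870), the enzyme that leads from oil to sugar, had 0.632 in seedling and 0.912 in seed, while its mRNA fell from 650 TPM to 155 and 154 TPM. In each of these 4 the seed value lay above all 8 other tissues. The protein kinase gene AT3G07700 held the 1 site of the 215 that was higher in seedling by 0.1, at 0.587 against 0.432. The GAR1 site, in an mRNA whose protein belongs to the Ψ machinery, had 0.199 in seedling and 0.132 in seed. Its difference of 0.0675 was under the 0.1 counted. A second GAR1 site, in the 5′-UTR and passed in seed only, had 0.042 in seedling and 0.129 in seed.

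Over all 7812 sites, 1418 (18.2%) were at least 0.1 higher and 1244 (15.9%) at least 0.1 lower in seedling, with a median difference of 0.0048. No test was possible with 1 value per tissue, and these counts describe the columns only. Many fractions were exactly 0: 2904 sites in seed and 995 in seedling, 523 of them in both. The sign of the median turned with the choice of sites. Among the 436 sites passed in both tissues, 14 (3.21%) were at least 0.1 higher and 88 (20.2%) at least 0.1 lower in seedling, and the median difference was -0.020. Their median fraction was 0.203 in seedling and 0.252 in seed. Across these 436 sites the fractions of both tissues were correlated (Pearson's r = 0.924, Spearman's rho = 0.915, a description over sites of shared libraries).

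The filter of the authors uses the signal in each tissue, so a site passed in 1 tissue only was in part chosen for a high value there. Of 1689 sites passed in seedling only, 597 were at least 0.1 higher and 131 lower in seedling, and 661 were at 0 in seed. Of 1088 sites passed in seed only, 25 were higher and 471 lower, and 281 were at 0 in seedling. Together with the 436, these 3213 sites had 636 (19.8%) higher and 690 (21.5%) lower, and a median difference of -0.0008.

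**Figure D4:**
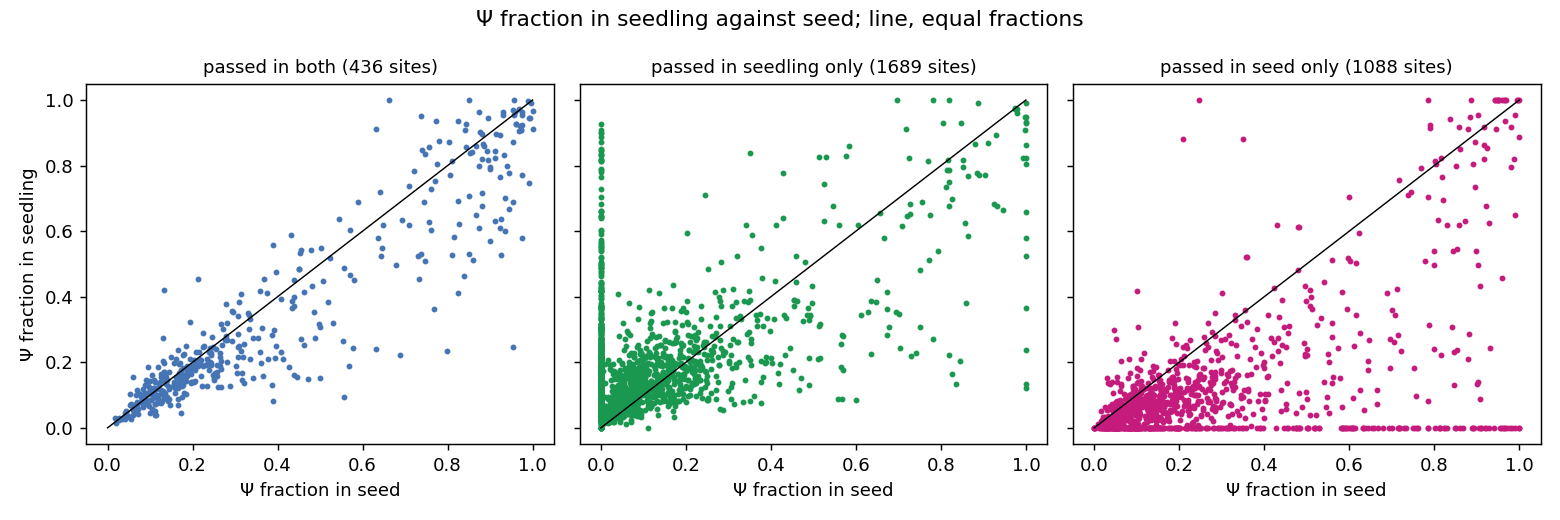
Ψ fraction in seedling (y axis) against seed (x axis) for sites passed in both tissues, in seedling only and in seed only, with a line of equal fractions. The 436 sites passed in both cluster on and under the line (88 lower by 0.1 or more in seedling, 14 higher), and many sites passed in 1 tissue lie at a fraction of 0 in the other.

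The level of the mRNA in seed moved with these differences. Of sites in nuclear protein-coding genes, 587 of 631 had a seed fraction of 0 where the gene was at 1 TPM or less in seed, 1230 of 1669 between 1 and 10 TPM, and 9 of 253 above 1000 TPM. For sites passed in both, the median difference was -0.276 over 3 sites at 1 to 10 TPM in seed, all 3 at least 0.1 lower in seedling. It was -0.107 over 59 sites at 10 to 50 TPM in seed, with 32 at least 0.1 lower in seedling and none higher. It was -0.021 over 141 sites at 50 to 200 TPM, -0.0016 over 88 sites at 200 to 1000 TPM and 0.0036 over 26 sites above 1000 TPM. By seedling level the median was 0.071 over 8 sites at 1 to 10 TPM (2 lower and 2 higher by 0.1 or more), and from 10 TPM up it ran from -0.058 (63 sites, 10 to 50 TPM) through -0.015 (148 sites) and -0.013 (84 sites) to -0.020 (14 sites above 1000 TPM). With 50 TPM or more in each of the 3 columns, 229 sites passed in both had a median difference of -0.013, with 2 higher and 17 lower by 0.1 or more. The filter uses the signal, so passing at a low seed level can favour a high seed fraction. Sites passed in both had a median seed fraction of 0.397 at 10 to 50 TPM in seed and 0.087 above 1000 TPM. All 2196 sites of protein-coding genes at 10 to 50 TPM in seed, passed or not, had a median difference of 0.0028. Of these, 329 were at least 0.1 higher and 366 at least 0.1 lower. The parts of seed mRNA level and of the filter in the difference were not tested.

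The medians differed by the call of the gene. In genes that rose in seedling, 53 sites passed in both had a median difference of -0.060, with 19 lower by at least 0.1 and none higher. In genes that fell, 83 sites had a median of 0.0076, with 4 lower and 4 higher. In genes not called, 181 sites had a median of -0.018, with 30 lower and 1 higher. With at least 50 TPM in each column the medians were -0.040 (32 sites), 0.0051 (54 sites) and -0.010 (129 sites). In the 54 sites of genes that fell, the mean was -0.0057, with 3 lower by at least 0.1 and none higher. The sign there depended on the measure. Among sites passed in either tissue, the medians in genes that rose and that fell had signs opposite to those passed in both. They were 0.046 over 1214 sites (416 higher and 144 lower by 0.1 or more) and -0.032 over 757 sites (37 higher and 176 lower). Genes not called had -0.0056 over 827 sites (123 higher and 201 lower). Over the 317 sites of protein-coding genes passed in both, the fraction difference had a Spearman's rho of -0.465 with the log2 expression difference. With seed TPM it was 0.464. Over the 2798 such sites passed in either tissue both signs turned, to 0.370 and -0.320. The direction thus differed between the sets of sites, which the filter defines by the signal in each tissue. Seed level and zeros changed with the set. In genes that rose, 573 of the 1214 sites passed in either were at 0 in seed, at a median of 11.5 TPM there. None of the 53 passed in both was at 0, at a median of 90.3 TPM in seed. The parts of the filter and of the seed level in the turned signs were not tested. All these values are descriptions, and all points share the single seed column.

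**Figure D5:**
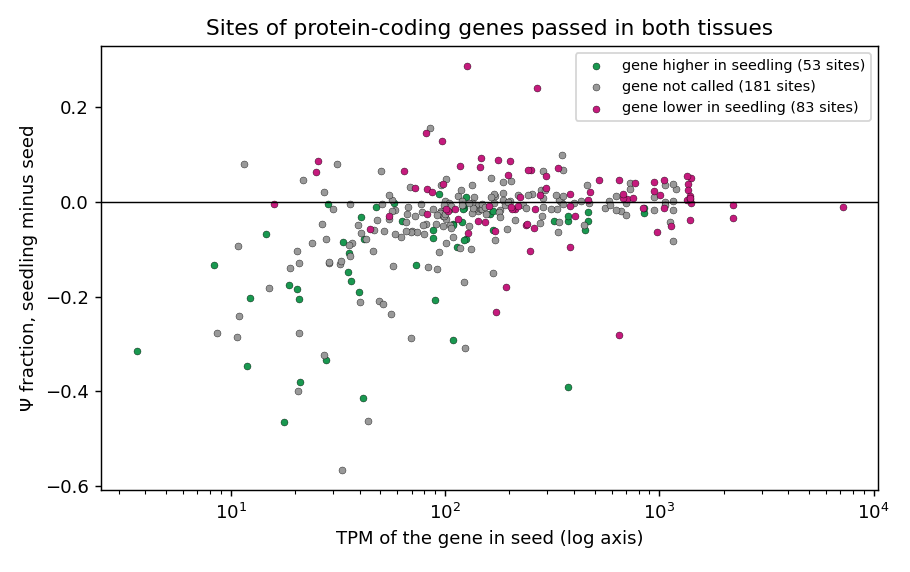
Difference in Ψ fraction, seedling minus seed, against the TPM of the gene in seed (log axis) for sites of protein-coding genes passed in both tissues, coloured by the call of the gene. The points spread far below 0 at low seed TPM (median -0.107 at 10 to 50 TPM) and close around 0 above 1000 TPM (median 0.0036). Counting also sites not passed in both, which are not drawn, the 2196 at 10 to 50 TPM had a median of 0.0028.

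The bases around Ψ gave unlike values. CΨC, the most frequent context among sites of protein-coding genes passed in both (88 sites), had a median difference of -0.0038, with 8 lower and 2 higher by 0.1 or more. All 317 such sites had a median of -0.017, with 53 (16.7%) lower and 5 (1.58%) higher. UΨG (67 sites) had -0.033, UΨC (35 sites) -0.043 with 13 lower and 1 higher, and UΨA (13 sites) -0.060. GΨG (35 sites) had -0.026, GΨC (28 sites) -0.015 and AΨC (19 sites) -0.017. With at least 50 TPM in each column, CΨC had 0.0076 (61 sites), UΨG -0.022 (41 sites) and UΨC -0.030 (23 sites, 4 lower and none higher). UΨA had -0.051 (7 sites), GΨG -0.016 (28 sites), GΨC -0.0049 (22 sites) and AΨC -0.017 (13 sites). All 215 sites at that level had -0.012, with 14 lower and 1 higher. CΨC made up 27.9% of sites passed in seedling only, 27.8% of those passed in both and 19.4% of those passed in seed only, whereas UΨC made up 9.10%, 11.0% and 14.3%.

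By position in the mRNA, sites passed in both had medians of -0.017 in coding sequence (286 sites), -0.014 in 3′-UTRs (20 sites) and -0.049 in 5′-UTRs (11 sites). Among sites passed in either tissue the medians were 0.0037 in coding sequence (2373 sites), -0.0094 in 3′-UTRs (222 sites) and 0.035 in 5′-UTRs (98 sites). Of the 98, 34 were at least 0.1 higher and 16 lower, beside 20.6% and 18.6% of the 2798 sites of protein-coding genes passed in either tissue. The 64 that passed in seedling only held 33 of the 34 higher ones, and 30 of the 64 were at 0 in seed. None of the 11 passed in both was at least 0.1 higher, and 2 were lower. The sign in coding sequence and 5′-UTRs thus turned with the choice of sites. None of the 96 intron sites that passed in either tissue passed in both. In 53 of the 96 the fraction was exactly 0 in 1 of the 2 tissues, and the median absolute difference was 0.280, against 0.069 for the 2373 coding sites. Intron sites also lay close to exons: 44 of 96 (45.8%) were within 3 nucleotides of the nearest exon end of the representative transcript, against 66 of 2373 (2.78%) in coding sequence. For intron sites within 3 nucleotides the median absolute difference was 0.470, beyond that 0.214.

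Of the 12 sites with the largest differences, 8 lay in introns and 5 of these within 3 nucleotides of an exon end. The 12 were taken among 1952 sites that passed in either tissue and lie in single nuclear protein-coding genes with 10 TPM or more in each column, and the sequences shown are those 5 and a 5′-UTR site 114 nucleotides from the nearest exon end.
AT3G02740, intron, chr3:592531-592551, plus strand: caagttcgagTaagtcttgtt
AT1G01710, intron, chr1:265618-265638, plus strand: ctctatgtggTagttttttct
CCP1, intron, chr2:14560963-14560983, plus strand: cgagaagccgTaagatctatg
AT3G27570, intron, chr3:10216227-10216247, minus strand: gttgttgttgTagacgaagct
GSH1, intron, chr4:12104230-12104250, minus strand: tccataacacTaggttcggtt
TCTP, 5′-UTR, chr3:5670806-5670826, minus strand: cacttcagaaTcccctcgtcg
In the first 3 the capital T follows a g and stands 2 nucleotides from an exon end, and in the next 2 it begins the letters Tag and stands 3 nucleotides from one. Whether the nearness of an exon end affects the fraction at these 5 sites was not tested. Their read depth is not known, so a fraction of 0 in 1 tissue cannot be read as a loss of Ψ. The aspartyl protease gene AT3G02740 had a fraction of 0.966 in seed and 0 in seedling, and AT1G01710, an acyl-CoA thioesterase, 0.940 and 0. GSH1 (AT4G23100), the first enzyme of glutathione synthesis, had 0.849 in seed and 0 in seedling, with 0.636 to 0.893 in the other tissues. In the opposite direction CCP1 (AT2G34560) had 0.899 in seedling and 0 in seed, and AT3G27570, a sucrase/ferredoxin-like protein, 0.845 and 0. Also higher in seedling were sites in RPS15A (AT1G07770, intron, 0.927 against 0), AT2G20410 (5′-UTR, 0.908 against 0) and HPR1 (AT1G68010, intron, 0.819 against 0). TCTP (AT3G16640), the translationally controlled tumor protein, had 0.887 in seedling and 0 in seed at 851 TPM or more in each column, and 0 to 0.885 in the other tissues. Lower in seedling were also coding sites in AT1G55890 (0 against 0.889) and AT1G63170 (0 against 0.860), both at 0 in every other tissue with a value, and an intron site in UBQ1 (AT3G52590, 0.089 against 0.908). Each of these 12 sites passed in only 1 of the 2 tissues, and leaving out intron sites left 1274 higher and 1123 lower of 7443 sites.

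Sites in the gene lists passed mainly where the mRNA was abundant. All 55 sites in light-harvesting genes and all 28 in Rubisco and Calvin cycle genes passed in seedling only, and all 10 in storage genes, all 10 in oil-body genes and 35 of 36 in LEA genes passed in seed only (the exception, the RAB18 intron site, passed in seedling). The median differences in fraction were 0.022 for light-harvesting, 0.022 for Rubisco and Calvin cycle, -0.016 for storage, -0.011 for oil-body and -0.0097 for LEA sites. All sites passed in seedling only had a median of 0.056, and all passed in seed only had -0.082. Such sites were in part chosen for a high value in that tissue, so the signs of the lists cannot be read apart from the filter. In 3 of the 55 light-harvesting sites the fraction was at least 0.1 higher in seedling and in 1 lower. Of all 1689 sites passed in seedling only, 35.3% were higher and 7.76% lower. Repeats within or between these genes share sequence, so their sites are not independent and reads may have been placed in any copy.
M17, coding sequence, 4 copies, the first at chr2:17206871-17206891, plus strand: ccgtggtggtTgtaggtgggg
RBCS1A, coding sequence, chr1:25048683-25048703, minus strand: agcacggattTgtgtaccgtg
The M17 (AT2G41260) copies had fractions of 0.070, 0.037, 0.058 and 0.089 in seedling and 0.077, 0.079, 0.078 and 0.073 in seed, at 4399 TPM in seed against 146 and 166 TPM in seedling. The RBCS1A window recurs unchanged in RBCS1B, RBCS2B and RBCS3B, and the 4 sites had 0.067, 0.054, 0.058 and 0.067 in seedling and 0.029, 0.028, 0 and 0.035 in seed.

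In the photorespiration gene GLDP1, all 6 sites passed in seedling only, with fractions from 0.087 to 0.849 there. In seed 5 of the 6 were at 0, at 8.43 TPM of the mRNA. CAT3 had 3 sites passed in both tissues: 0.058 in seedling and 0.059 in seed, 0.117 and 0.082, and 0.054 and 0.060. In the oil β-oxidation gene ACX4 (AT3G51840), a coding site had 0.518 in seedling and 0 in seed at 145 TPM in seed and 282 and 293 TPM in seedling.

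The 3 sites passed in both with the highest mean fraction had 0.997 in seedling and 0.989 in seed (position 901188 of chromosome 4, where the tRNA gene AT4G02055 and MCM7, AT4G02060, overlap), 0.990 and 0.995 (the tRNA gene AT4G14345) and 0.966 and 1.00 (position 35330 of the plastid genome). The last passed in all 9 tissues.
Plastid genome, Pt:35320-35340, minus strand: tatcgagggtTcgaatccctc
Sites passed in both had a median difference of -0.0038 in nuclear tRNA genes (24 sites), -0.031 in snRNA genes (13 sites), -0.125 in snoRNA genes (6 sites) and 0.043 in rRNA genes (6 sites). Plastid sites passed in both had -0.093 (24 sites, 11 lower and 2 higher by 0.1 or more) and mitochondrial sites -0.056 (11 sites, 3 lower and 1 higher). Of the 20 snoRNA sites passed in either tissue, 13 were at least 0.1 lower in seedling and none higher. Over all 3213 sites passed in either tissue, 21.5% were lower and 19.8% higher. Among the 20, 5 were at 0 in seedling, and the median level was 12.9 TPM in seedling and 34.4 TPM in seed. The 35 rRNA sites passed in either tissue had a median of -0.211, with 19 lower and 4 higher, opposite in sign to the 6 passed in both. Among the 35, 13 were at 0 in seedling, and the median level was 3.00 TPM in seedling and 19.8 TPM in seed. Of the 48 tRNA sites passed in either, 13 were lower and 5 higher, and 10 were at 0 in seedling. The parts of the filter and of the RNA level in these differences were not tested. The libraries were made from poly(A)-tailed RNA, so these RNAs were sampled only as far as they passed that selection.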

How the data were processed

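Poly(A)-tailed RNA was sequenced as input and bisulfite-treated BID-seq libraries. The authors mapped reads to TAIR10, combined the replicates of a tissue and deposited per site a calibrated Ψ fraction and a flag for passing their filter, which was P value-based and whose threshold is not given in the sources used here. They also deposited TPM per gene. The tool and annotation behind TPM are not given in the sources used here, TPM keep no depth, and precision therefore rests on the spread between columns. Expression columns were matched to groups, not to single libraries. The methods speak of biological replicates without saying whether they were separate plants, so p-values measure only the spread between these libraries.

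Genes with at least 1 TPM in at least 1 of 16 columns were fitted with limma 3.58.1 (trend, R 4.3.3) on log2(TPM + 1), 1 coefficient per tissue and 7 residual degrees of freedom, contrast seedling minus seed, two-sided. The fit was tested on simulated data. Site differences were counted at 0.1 with no test. Sites were placed by the table's gene coordinates and strand, and regions by the RefSeq transcript with the longest coding sequence; 32548 of 32833 gene identifiers matched RefSeq. Python 3.11.15, pandas 2.3.3 and matplotlib 3.10.9 were used.

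Named were the 10 largest called differences each way, up to 4 members each way of 21 gene lists (260 genes) and of the pseudouridine synthases, members against their list's majority, the 6 largest site differences each way, the 3 highest sites passed in both and sites in list members. Other members given as values were chosen after their values were seen. Members and lists were chosen with earlier results of these data known. Alternatives were another pseudocount, filter, scaling, set of columns or fold minimum, each seedling column left out, and for sites the filter flags, fractions above 0, expression, genome, gene class, threshold and the mean. Sites passed in both at 50 TPM or more, and intron sites left out, were added after the data were seen.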

Additional observations from a re-analysis of the deposited data

How the results depend on the processing

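The named genes were mostly chosen for the size of their difference, which favours keeping a call, and dropping the fold minimum could remove none. Over all genes, 4806 of 10568 higher calls and 3382 of 3389 lower calls held under all 3 scalings. Of 105 called genes named by the rule, 98 kept their call under all 9 alternatives for genes. The exceptions were WRI1 (-0.13 under quantile normalization, -0.0020 under median centring), PIF1 (0.35 under quantile normalization and -0.50 under median centring, and 0.96 without seedling replicate 2), the flower gene PI (-0.15 and -0.16 in that order, and 1.36 but not called with only the 3 columns compared, adjusted p = 5.7e-02), NIR1 (-0.11 under median centring) and the 3 pseudouridine synthases given above. Genes higher in seedling numbered 6687 under quantile normalization and 4842 under median centring, against 10568. Genes lower numbered 7221 and 12715, and 5990 with no fold minimum, against 3389. Leaving out a seedling column gave 10539 to 10675 higher and 3347 to 3413 lower. The scaling is the only change in the first 2 of these. Sites at least 0.1 higher in seedling numbered 1418 in all, 636 when passed in either tissue, 14 when passed in both, 265 with fractions above 0 in both, 468 at 10 TPM or more and 2 when passed in both at 50 TPM or more. Sites at least 0.1 lower numbered 1244 in all, and 690, 88, 926, 635 and 17 in the same order. At a difference of 0.2, 567 were higher and 709 lower. The median difference, 0.0048, turned to -0.00082 (passed in either), -0.020 (passed in both), -0.017 (above 0 in both) and -0.013 (passed in both at 50 TPM or more), and the mean was -0.0020. The smaller counts follow in part from fewer sites, and the cause of the turned sign was not tested. No paired analysis was possible because seedling and seed share only replicate number 1 among the inputs and the fractions are combined over replicates. With 1 seed column no result can be checked without it.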
